A study of Mus musculus with 6 samples.

Results

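Transcripts of the T helper 2 (Th2) program were followed in mouse CD4+ T cells that were restimulated through CD3, with or without the costimulatory receptor ICOS. The 10 genes were listed by name (Gata3, Il4, Il13, Il9, Il24, Il1rl1, Il17rb, Gfi1, Ecm1 and Areg), and 8 of them had a probe set under a single gene symbol, of 19937 genes in all. Il1rl1 and Areg had none and were not analysed here. The cells were naive CD4+ T cells from the spleen of B6 mice, activated for 2 days with antibodies to CD3 and CD28 and rested overnight. All 6 cultures shared that history and were then given antibody for 20 min and cross-linked for 8 h. Antibody to CD3 alone was given to 4 cultures (anti-CD3) and antibodies to CD3 and ICOS together to 2 (anti-CD3 plus anti-ICOS), with 1 array per culture. The question put to these genes is whether engaging ICOS beside CD3 changes their transcript levels.

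Th2 cells are the helper lineage of allergy and of defence against worms. Signals from the T cell receptor and from IL-4, acting through STAT6, raise GATA3, the factor that defines the lineage and opens the shared cytokine locus of Il4, Il5 and Il13. ICOS belongs to the CD28 family, signals through PI3K and is known to help T cells make IL-4 and IL-10. The cells here had seen CD3 and CD28 antibodies with no Th2-polarising cytokine named in the labels.

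Il4 and Il13 are neighbouring genes on chromosome 11, beside Rad50, and Il9 lies on chromosome 13. Their promoters are shown because these 3 cytokine genes are the program's output and did not share a pattern across the arrays. Each line gives the 250 bases before a RefSeq start site (GRCm38.p6) 5′ to 3′ on the gene's strand. Capitals mark GATAA, the core read by GATA factors, and GGAAA, the core read by NFAT, on either strand, so that TTTCC is GGAAA on the opposite strand. RefSeq lists 2 starts for Il4, and the upstream start is shown.
Il4, chr11:53618666-53618915, minus strand: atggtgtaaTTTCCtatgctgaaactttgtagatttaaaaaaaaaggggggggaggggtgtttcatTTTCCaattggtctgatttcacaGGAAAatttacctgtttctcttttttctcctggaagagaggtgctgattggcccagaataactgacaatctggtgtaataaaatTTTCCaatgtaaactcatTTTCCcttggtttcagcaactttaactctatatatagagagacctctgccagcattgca
Il13, chr11:53634703-53634952, minus strand: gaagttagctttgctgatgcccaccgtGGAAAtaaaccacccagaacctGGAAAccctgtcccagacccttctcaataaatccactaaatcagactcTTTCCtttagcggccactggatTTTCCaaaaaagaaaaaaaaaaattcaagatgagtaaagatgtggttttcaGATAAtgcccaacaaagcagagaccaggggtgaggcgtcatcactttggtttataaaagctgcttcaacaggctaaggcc
Il9, chr13:56482258-56482507, minus strand: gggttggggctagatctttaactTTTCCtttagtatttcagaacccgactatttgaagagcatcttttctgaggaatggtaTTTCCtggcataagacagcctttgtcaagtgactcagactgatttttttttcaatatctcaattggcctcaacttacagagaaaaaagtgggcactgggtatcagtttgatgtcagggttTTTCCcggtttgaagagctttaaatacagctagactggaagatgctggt
The Il13 window held GATAA in 1 place, and the Il4 and Il9 windows did not hold these letters. GGAAA stood in 5 places for Il4, 4 for Il13 and 3 for Il9, while the window of the other Il4 start held it in 0 places. Of 32851 RefSeq promoters cut to the same 250 bases, 22.6% held GATAA and 55.6% held GGAAA on either strand. The AP-1 letters TGANTCA, in 6.75% of promoters, were found once for Il9 and not for Il4 or Il13. None of these matches overlapped another motif.

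No Th2 program gene passed the test between the groups. With all 6 arrays, 0 of the 8 measured members had a limma adjusted p under 0.05, where 0.271% of all genes did. The number at an unadjusted p under 0.05 was 1 of 8, Il17rb, against 11.8% of all genes. The median difference, given throughout as the anti-ICOS group less the anti-CD3 group, was -0.070 on the log2(intensity + 16) scale over the 8 members and -0.031 over all genes. Adjusted p-values of the members lay between 0.414 and 0.696. By an exact two-sided permutation test over the 6 arrays, p lay between 0.133, the smallest value these group sizes can give, and 0.667. The 95% intervals of the 8 differences reached at most a ratio of 1.82 upward, for Il4, and 0.731 downward, for Il13.

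**Figure D1:**
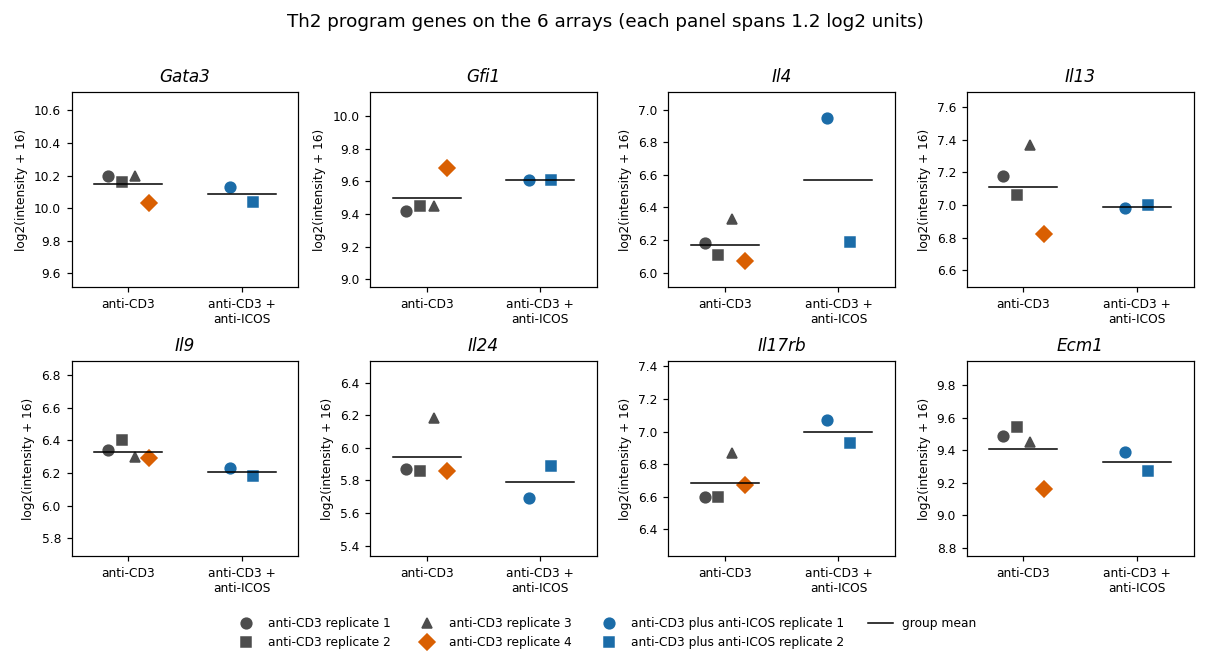
Values of the 8 measured Th2 program genes on each array, as log2(intensity + 16) on the vertical axis, with the 4 anti-CD3 arrays on the left (replicate 4 as an orange diamond), the 2 anti-CD3 plus anti-ICOS arrays on the right in blue and a line at each group mean. The groups overlap in 6 panels, Il17rb has both anti-ICOS arrays above and Il9 both below, and the 2 anti-ICOS arrays are farthest apart for Il4.

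The arrays themselves set limits on these readings. Median intensities of all probe sets lay between 109 and 114 on the 6 arrays. The deposited table held no detection calls, so whether the dim probe sets of Il4, Il9, Il24 and Il17rb lay above background is not known here. Over all genes, which are not independent replicates, the Pearson r of anti-CD3 replicate 4 was 0.996 with each anti-ICOS array and 0.982 to 0.987 with the other 3 anti-CD3 arrays. Its value is therefore given apart for every member. The labels name them biological replicates without saying whether they came from separate mice, so the p-values cover only the spread among these 6 arrays, whose number limits the precision. The T cell markers Cd4 and Cd3e were bright on every array, at 11.95 to 12.81 on the log2 scale. They were lower on both anti-ICOS arrays than on any anti-CD3 array, by 0.33 ± 0.12 and 0.27 ± 0.11 (adjusted p = 0.417 and 0.420). Replicate 4 was the lowest anti-CD3 array for both, at 12.05 and 12.45. The anti-ICOS means less replicate 4 were -0.07 and -0.04. Cd3d and Cd3g differed by -0.03 and -0.01 between the groups, which overlapped. Of 6 measured T cell markers 4 lay below the anti-CD3 range on both anti-ICOS arrays and 0 above it, against 14.7% and 8.51% of all genes, with a median of -0.19. Of these 6, 0 passed the test with all arrays. Without replicate 4, 3 were lower and 0 higher, against 12.7% and 17.1% of all genes. The 2 CD8 T cell markers, Cd8b1 and Cd8a, read 11.49 to 11.76 and 9.98 to 10.32 over the 6 arrays. Their groups overlapped, with differences of 0.10 and 0.08, and 0 passed the test. Transcripts of B cells were also bright on every array, at 11.36 to 11.81 for Ms4a1 and 12.10 to 12.35 for Cd79a. The groups overlapped for all 4 measured B cell markers, Ms4a1, Cd79b, Pax5 and Cd79a, with differences of 0.19, 0.16, 0.24 and -0.09. Pax5 read 9.73, 9.83, 9.73 and 10.29 in anti-CD3 replicates 1 to 4, and 10.03 and 10.23 with anti-ICOS. Of the 4, 0 passed the test with all arrays. Without replicate 4, 2 were higher and 0 lower, against 17.1% and 12.7% of all genes. Monocyte and macrophage markers had a median of 0.27 for replicate 4 less the mean of replicates 1 to 3. NK cell markers had 0.21 and all genes -0.036. The anti-ICOS mean less the same reference gave medians of 0.39 and 0.38, against -0.041 over all genes. Single markers differed, since Csf1r, Cd68 and Ncr1 were lower in replicate 4 than that reference and the others higher. In both sets 0 passed the test with all arrays. Without replicate 4, 5 of 7 and 4 of 5 were higher and 0 lower, against 17.1% and 12.7% of all genes. Lyz2, the myeloid lysozyme gene, had 6.71, 6.70, 6.77 and 8.53 in anti-CD3 replicates 1 to 4 and 8.47 and 9.67 with anti-ICOS. The 7 monocyte and macrophage markers all had positive differences, and their summed intensity was 763 to 815 in replicates 1 to 3, 1292 in replicate 4, and 1287 and 1971 with anti-ICOS. The 5 measured NK cell markers were also all positive, with sums of 381 to 462, then 687, and 741 and 710. Eomes, also counted among the Th1 regulators, was the brightest of the 5, at 8.12 to 9.17, and weighs most in this sum. Relative to replicates 1 to 3, replicate 4 lay at 0.81 for Eomes. It lay at 0.36, 0.21, 0.02 and -0.07 for Klre1, Klra8, Klrb1c and Ncr1. The part of B cells, CD8 T cells, monocytes, macrophages and NK cells in the members' values was not tested. In these bulk cultures, fewer cells of a type and less RNA per cell cannot be told apart.

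Gata3, the lineage-defining transcription factor, varied little across the cultures. Its deposited intensities were 1157, 1127, 1161 and 1027 in anti-CD3 replicates 1 to 4, and 1107 and 1039 with anti-ICOS. On the log2 scale these were 10.20, 10.16, 10.20 and 10.03 against 10.13 and 10.04. All 6 arrays fell within 0.17, with replicate 4 the lowest and both anti-ICOS arrays inside the anti-CD3 range. The group means were 10.15 ± 0.081 (SD, n = 4) and 10.09 ± 0.063 (SD, n = 2). The difference was -0.06 ± 0.080 (SE, limma adjusted p = 0.688), a ratio of 0.960 with a 95% interval of 0.842 to 1.10.

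Gfi1, a zinc-finger repressor that is induced by T cell activation and favours the expansion of Th2 cells, read 9.42, 9.45 and 9.45 in anti-CD3 replicates 1 to 3. In replicate 4 it was 9.68, and on the anti-ICOS arrays 9.61 and 9.61. The anti-ICOS arrays therefore lay above replicates 1 to 3 and below replicate 4, so the groups overlapped. Replicate 4 stood apart from its group by Dixon's test, and some anti-CD3 array did so in 8.69% of all genes. The difference with all 6 arrays was 0.11 ± 0.092 (SE, adjusted p = 0.527). It was 0.17 without replicate 4 (adjusted p = 0.0704) and -0.07 against replicate 4 alone.

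Among the 4 measured cytokines, Il4 was high on 1 array. Il4, which drives Th2 differentiation and class switching to IgE, had intensities of 56.7, 53.0, 64.5 and 51.1 in anti-CD3 replicates 1 to 4. With anti-ICOS it had 108 in replicate 1 and 57.1 in replicate 2. Only the first of these lay above the anti-CD3 range. On the log2 scale the anti-ICOS arrays read 6.95 and 6.19 against 6.17 ± 0.12 (SD, n = 4) with anti-CD3. The gap of 0.76 between the 2 anti-ICOS arrays was larger than the whole anti-CD3 range, and 0.105% of all genes had replicate 1 above replicate 2 by at least as much. The group difference was 0.40 ± 0.20 (SE, adjusted p = 0.423). It fell to 0.018 without anti-ICOS replicate 1 and was 0.78 without anti-ICOS replicate 2, neither past the threshold (adjusted p = 0.976 and 0.220).

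Il13, the cytokine of mucus production and airway responsiveness, did not follow its neighbour Il4. Its log2 values were 7.18, 7.06, 7.37 and 6.82 in anti-CD3 replicates 1 to 4, and 6.98 and 7.0 with anti-ICOS. The anti-ICOS arrays were close to each other and lay inside the anti-CD3 range, below replicates 1 to 3 and above replicate 4. The difference was -0.12 ± 0.14 (SE, adjusted p = 0.653), a ratio of 0.923 (95% interval 0.731 to 1.17). Rad50 and Kif3a, the genes on either side of the Il4 and Il13 pair, differed by -0.13 ± 0.087 and 0.00 ± 0.16 (adjusted p = 0.465 and 0.988). Il5, the eosinophil growth factor encoded beyond Rad50, read 5.82, 5.74, 5.86 and 5.74 with anti-CD3 and 5.85 and 5.77 with anti-ICOS, a difference of 0.02 ± 0.073 (SE, adjusted p = 0.860).

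Il9, a growth factor for mast cells that is made by Th2 and Th9 cells, was slightly lower on both anti-ICOS arrays. It read 6.34, 6.40, 6.30 and 6.29 with anti-CD3 and 6.23 and 6.18 with anti-ICOS. Both anti-ICOS arrays lay below all 4 anti-CD3 arrays, which held for 14.7% of all genes. The difference of -0.13 ± 0.069 (SE) did not pass the test (adjusted p = 0.427), and quantile normalization brought it to -0.039. Il9r, its receptor chain, differed by -0.22 ± 0.086 (adjusted p = 0.420) with both anti-ICOS arrays below the rest.

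Il24, a cytokine of the IL-10 family that Th2 cells make, read 5.87, 5.86, 6.18 and 5.86 with anti-CD3 and 5.69 and 5.89 with anti-ICOS. Anti-CD3 replicate 3 stood apart from its group, and the groups overlapped. The difference was -0.15 ± 0.12 (SE, adjusted p = 0.50). Il19 and Il20, relatives of Il24 that lie beside it on chromosome 1, differed by -0.07 ± 0.098 and -0.18 ± 0.090 (adjusted p = 0.686 and 0.425).

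Il17rb was the member with the smallest p. It encodes the subunit of the IL-25 receptor by which Th2 cells respond to that epithelial cytokine. Its intensities were 81.0, 80.8, 101 and 86.1 in anti-CD3 replicates 1 to 4, and 118 and 106 with anti-ICOS. Neither anti-ICOS value overlapped the anti-CD3 values, and both were higher, as in 8.51% of all genes, and anti-CD3 replicate 3 came closest to them. The group means were 6.69 ± 0.13 (SD, n = 4) and 7.0 ± 0.099 (SD, n = 2) on the log2 scale. The difference was 0.31 ± 0.10 (SE, adjusted p = 0.414), a ratio of 1.24 with a 95% interval of 1.05 to 1.46. This interval is not adjusted for the number of genes. Replicate 4 was not unlike its group here, at -0.02 from the mean of replicates 1 to 3, and the difference was 0.31 without it (adjusted p = 0.0521) and 0.32 against it alone (adjusted p = 0.939).

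Ecm1, a secreted matrix protein by which Th2 cells leave the lymph node, was lowest in anti-CD3 replicate 4. Replicate 4 read 9.16, the other 3 anti-CD3 arrays 9.49, 9.54 and 9.45, and the anti-ICOS arrays 9.39 and 9.27. The anti-ICOS arrays lay between replicate 4 and the other anti-CD3 arrays. The difference was -0.08 ± 0.12 (SE, adjusted p = 0.696), and it was -0.16 without replicate 4 and 0.16 against replicate 4 alone.

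**Figure D2:**
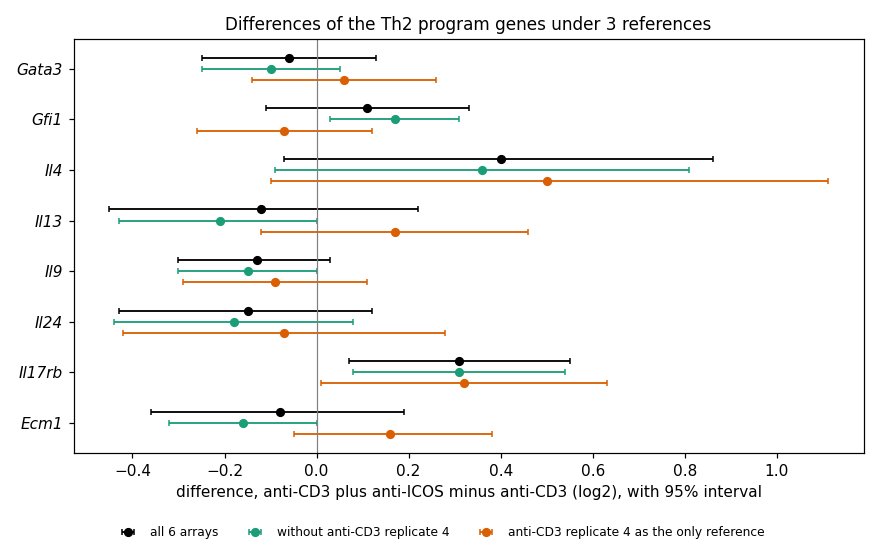
Differences of the 8 Th2 program genes (anti-ICOS group less anti-CD3 group) on the log2(intensity + 16) scale, with unadjusted 95% intervals from limma, for all 6 arrays (black), without anti-CD3 replicate 4 (green) and with replicate 4 as the only reference (orange). The sign of Gata3, Gfi1, Il13 and Ecm1 turns between the green and orange points, while Il17rb is at 0.31, 0.31 and 0.32.

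Leaving out anti-CD3 replicate 4 did not bring any member past the threshold. Without it 0 of 8 members were called, where 29.7% of all genes were, 17.1% higher and 12.7% lower. With replicate 4 as the only reference 0 of 8 were called, against 0.176% of all genes. With array weights 4 of 8 were called, Gfi1 and Il17rb higher and Il9 and Ecm1 lower, against 47.2% of all genes (22.8% higher and 24.4% lower). Those weights were 4.53 for anti-CD3 replicate 1 and 0.150 for replicate 4. Replicate 4 was the lowest anti-CD3 array in 6 of the 8 members and the highest in 1, against 42.5% and 34.5% of all genes. Relative to replicates 1 to 3, it lay at -0.38 for Il13, -0.33 for Ecm1 and -0.16 for Gata3, where the anti-ICOS means lay at -0.21, -0.16 and -0.10.

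Other genes of the Th2 pathway were taken from a list of 64 that was ordered by role, of which 61 were measured. Nfil3 alone passed the test, 1 higher and 0 lower, where 0.271% of all genes were higher. The median difference was 0.11 against -0.031 for all genes. Both anti-ICOS values were above the anti-CD3 range in 20 of the 61 and below it in 5, against 8.51% and 14.7% of all genes. Without anti-CD3 replicate 4, 26 of the 61 were higher and 5 lower, against 17.1% and 12.7% of all genes. The 61 included 6 chromosomal neighbours of Th2 genes, of which 2, Il18r1 and Il18rap, were among the 26. Il18r1 was also counted among the Th1 regulators. With replicate 4 as the only reference, the median difference of the 61 was 0.041.

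Nfil3, a leucine zipper factor that regulates Th2 cytokine and Il10 expression, read 7.68, 7.61, 7.55 and 7.60 with anti-CD3 and 8.60 and 8.26 with anti-ICOS. Every anti-ICOS value lay above every anti-CD3 value, and replicate 4 was not apart. The rise was 0.82 ± 0.11 (SE, adjusted p = 0.0450). The call was lost when any array but anti-CD3 replicate 4 was left out (adjusted p from 0.0562 to 0.215), and when replicate 4 was the sole reference (0.114). It also ended with quantile normalization (0.0616), median centring (0.0583), an offset of 64 (0.0917) and every probe set tested (0.0504). The difference itself was 0.65 to 0.99 with 1 array left out, 0.73 with quantile normalization and 0.69 with the offset of 64.

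Among feedback inhibitors of cytokine signalling, Cish, Socs1, Socs2 and Socs3 had both anti-ICOS values above the anti-CD3 range, as in 8.51% of all genes, and none of them passed the test. Socs5 differed by 0.14 ± 0.11 (adjusted p = 0.513) and its groups overlapped. Cish, a target of STAT5 that damps cytokine receptors, read 7.85, 7.86, 7.76 and 8.42 with anti-CD3 and 9.33 and 9.06 with anti-ICOS, a difference of 1.23 ± 0.19 (SE, adjusted p = 0.0884). Socs2, of the same family, read 8.52, 8.58, 8.43 and 9.44 against 10.32 and 10.44, a difference of 1.64 ± 0.27 (SE, adjusted p = 0.108). For both genes anti-CD3 replicate 4 stood apart from its group and lay between replicates 1 to 3 and the anti-ICOS arrays. Against replicate 4 alone Socs2 differed by 0.95 (adjusted p = 0.0136) and Cish by 0.78 (adjusted p = 0.104). Maf, a factor that activates Il4 and Il10, read 7.93, 7.90, 7.88 and 8.78 against 9.32 and 9.10, and replicate 4 was apart there too. Stat6, the signal transducer of IL-4, differed by 0.11 ± 0.072 (SE, adjusted p = 0.451). Among the 26 measured factors and signalling genes replicate 4 was the highest anti-CD3 array in 20 and the lowest in 2, against 34.5% and 42.5% of all genes. The repressor gene Bhlhe40 was lowest in replicate 4, at 8.99, with 9.98, 9.91 and 9.70 on the other anti-CD3 arrays and 9.47 and 9.39 on the anti-ICOS arrays.

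**Figure D3:**
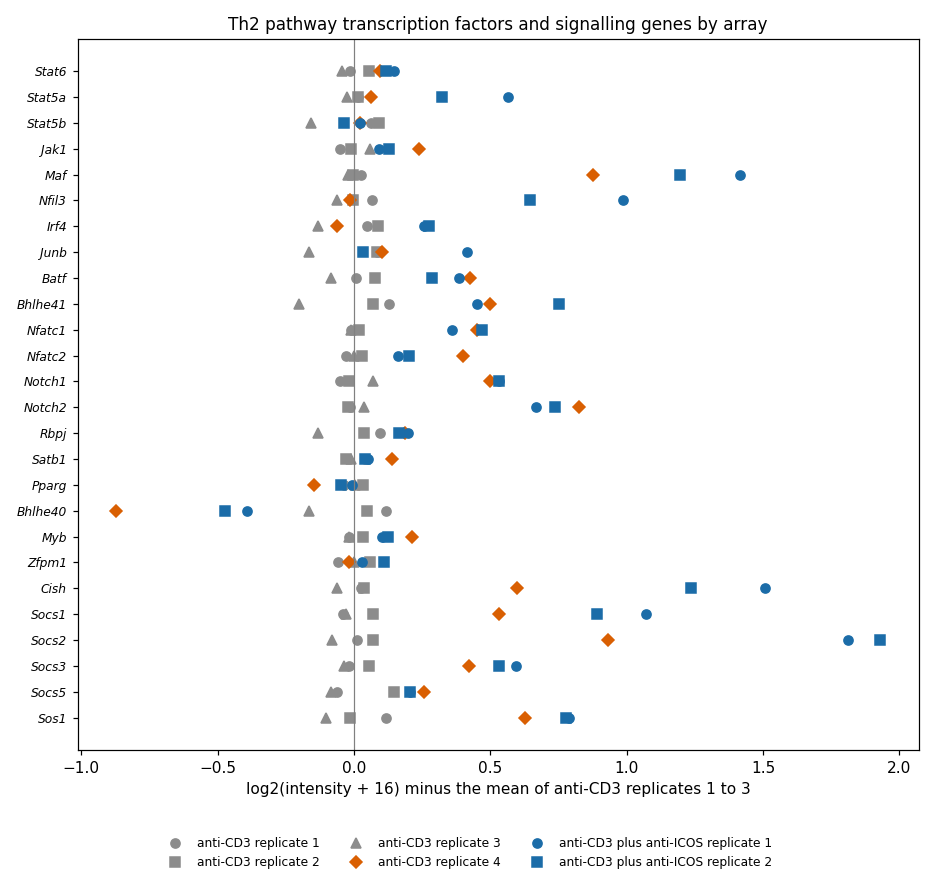
The 26 measured transcription factors and signalling genes of the Th2 pathway list, each array as a point at its log2(intensity + 16) minus the mean of anti-CD3 replicates 1 to 3 (grey, replicates 1 to 3; orange diamond, replicate 4; blue, anti-CD3 plus anti-ICOS). For Nfil3 replicate 4 lies at -0.01 beside the grey points, while for Maf, Cish and Socs2 it lies at 0.87, 0.60 and 0.93, between the grey and the blue points.

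Of 8 other cytokines on the list 0 passed the test. Il10, an anti-inflammatory cytokine that Th2 cells share with other helper cells, read 5.77, 5.83, 5.71 and 6.38 with anti-CD3 and 7.32 and 7.01 with anti-ICOS, a difference of 1.24 ± 0.20 (SE, adjusted p = 0.0958). Il6 differed by 0.47 ± 0.13 and Il2 by 0.56 ± 0.20 (adjusted p = 0.388 and 0.417). Il31, the itch cytokine of Th2 cells, read 6.89, 6.83, 7.02 and 6.62 against 6.61 and 6.69, with replicate 4 beside the anti-ICOS arrays.

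Of 15 measured receptor genes 0 passed the test with all 6 arrays. Il4ra, the IL-4 receptor chain that IL-13 also uses, read 10.91, 11.08, 10.97 and 11.31 with anti-CD3 and 11.41 and 11.41 with anti-ICOS, a difference of 0.34 ± 0.12 (SE, adjusted p = 0.414). Il13ra1, its partner in the IL-13 receptor, differed by 0.31 ± 0.098 (adjusted p = 0.414). The chemokine receptors of skin-homing and Th2 cells, Ccr4 and Ccr8, differed by 0.81 ± 0.20 and 0.39 ± 0.12 (adjusted p = 0.337 and 0.414). Icos itself differed by 0.38 ± 0.11 (adjusted p = 0.414). Both anti-ICOS values were above the anti-CD3 range in 6 of the 15 (Il4ra, Il13ra1, Il2ra, Ccr4, Ccr8 and Icos) and below it in 2 (Cd28 and Il9r), against 8.51% and 14.7% of all genes. Cd28, the relative of ICOS used in the first activation, differed by -0.28 ± 0.093 (adjusted p = 0.414). Ptgdr2, the prostaglandin D2 receptor that marks Th2 cells, differed by -0.08 ± 0.10 (adjusted p = 0.656) and its groups overlapped.

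**Figure D4:**
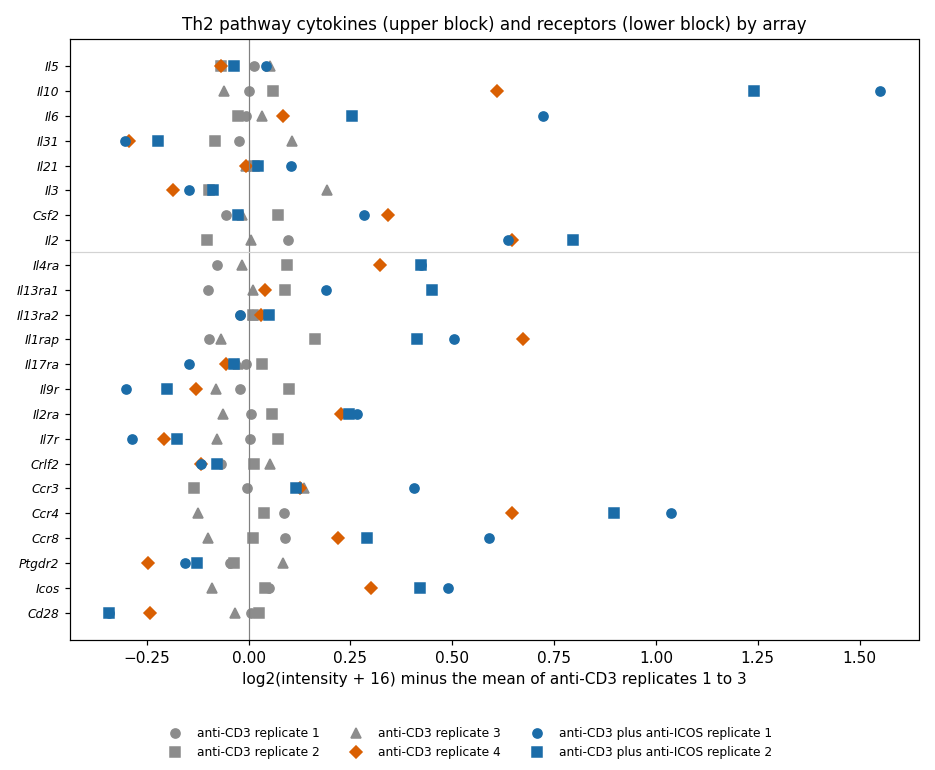
The 8 cytokine and 15 receptor genes of the Th2 pathway list, each array as a point at its log2(intensity + 16) minus the mean of anti-CD3 replicates 1 to 3 (grey, replicates 1 to 3; orange diamond, replicate 4; blue, anti-CD3 plus anti-ICOS). Il5, Il13ra2 and Ptgdr2 differed by 0.02, 0.01 and -0.08 between the groups, and for Il10 and Ccr4 replicate 4 lies at 0.61 and 0.65.

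The EGF receptor ligands other than Areg, with the sheddase Adam17 and Egfr, gave 0 of 6 past the test and a median of -0.13. Tgfa differed by -0.18 ± 0.075, Ereg by -0.20 ± 0.088 and Egfr by -0.15 ± 0.081 (adjusted p = 0.421, 0.421 and 0.428). Il18r1 and Il18rap, which encode the IL-18 receptor and lie on the same chromosome as Il1rl1, differed by 0.55 ± 0.26 and 0.53 ± 0.19 (adjusted p = 0.423 and 0.417). For Il18r1 replicate 4, at 9.51, was above both anti-ICOS arrays at 9.41 and 9.39.

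The opposing Th1 program was read from 12 measured regulators, of which 0 passed the test, with a median of 0.21. Tbx21, the factor that defines Th1 cells and opposes GATA3, read 9.93, 10.02, 9.75 and 9.96 with anti-CD3 and 9.98 and 9.96 with anti-ICOS, a difference of 0.05 ± 0.090 (SE, adjusted p = 0.739). Ifng, its main cytokine target, read 6.84, 7.05, 6.81 and 8.02 against 8.76 and 8.37, a difference of 1.39 ± 0.34 (SE, adjusted p = 0.327). Hlx differed by 0.34 ± 0.089 and Il12rb1 by 0.27 ± 0.096 (adjusted p = 0.382 and 0.417). Without replicate 4, 6 of the 12 were higher and 0 lower, against 17.1% and 12.7% of all genes, with Ifng higher by 1.67 (adjusted p = 0.000163). Against replicate 4 alone the median was 0.0082 and 0 passed.

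Mast cells, basophils, eosinophils and type 2 innate lymphoid cells also carry Th2 cytokine and receptor transcripts, and some of their markers lay higher with anti-ICOS. Of 13 mast cell and basophil markers 0 passed the test, and the groups did not overlap in 6, each higher with anti-ICOS (background 8.51%). Their summed intensity was 653 to 775 with anti-CD3, with replicate 4 the lowest, and 872 and 1067 with anti-ICOS. Cpa3, a mast cell protease gene, read 5.75, 5.67, 6.01 and 6.03 against 6.57 and 7.15. The other mast cell protease genes Cma1, Tpsab1, Tpsb2 and Mcpt4 differed by -0.17, -0.13, -0.11 and -0.05, and their groups overlapped. Mcpt8, a basophil protease gene, read 5.84, 5.94, 5.94 and 5.70 against 6.32 and 7.08. Cpa3 and Mcpt8 were higher on anti-ICOS replicate 2 than on replicate 1, while Hdc, like Il4, was higher on replicate 1 (6.84 and 6.69 on replicates 1 and 2). The high-affinity IgE receptor genes Fcer1a and Ms4a2 differed by 0.00 ± 0.070 and 0.09 ± 0.066 (adjusted p = 0.998 and 0.479). Both were dim, at 5.22 to 5.33 and 5.13 to 5.27, and whether they lay above background is not known here. Ms4a2 and Cd200r3, at 0.09 and 0.05, were among the 6 markers counted above. Kit, also among them, differed by 0.90 ± 0.13 (adjusted p = 0.0574).

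The 4 measured eosinophil markers gave 0 past the test and summed intensities of 265 to 324 with anti-CD3 and 311 and 305 with anti-ICOS. Of 6 measured markers of type 2 innate lymphoid cells, which T cells share in part, 0 passed and 4 were above the anti-CD3 range on both anti-ICOS arrays, against 8.51% of all genes. Their summed intensity was 5630 to 6397 with anti-CD3 and 6653 and 6923 with anti-ICOS. Il7r and Id2 were the brightest of the 6, at 11.76 to 12.12 and 10.20 to 11.33, and weigh most in this sum. Id2 differed by 0.74 ± 0.18 (adjusted p = 0.315). Among the 6 markers Klrg1 differed by 0.95 ± 0.16 and Rora by 0.75 ± 0.14 (adjusted p = 0.103 and 0.152), and Il7r and Nmur1 by -0.18 each (adjusted p = 0.426 and 0.436). Klrg1, Rora and Arg1 were higher on anti-ICOS replicate 1 (7.51, 9.10 and 6.24) than on replicate 2 (6.96, 8.71 and 6.16), as Il4 was. Id2, Il7r and Nmur1 were lower on replicate 1 than on replicate 2. The part of these cells in the values of Il4 and Il17rb was not tested.

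**Figure D5:**
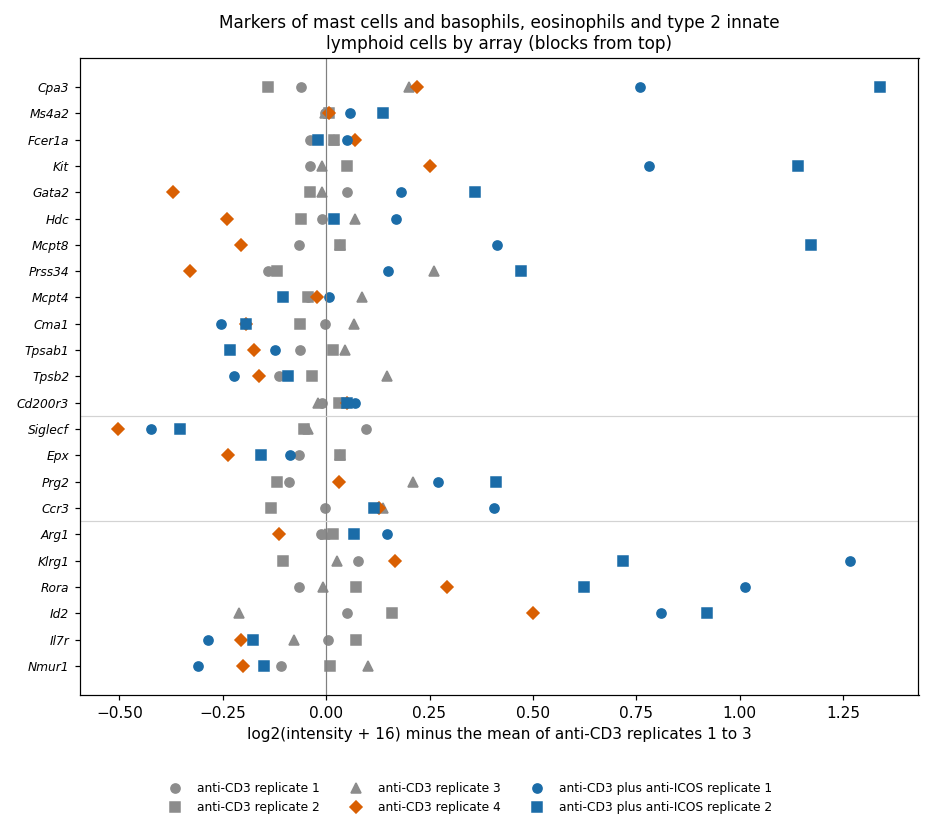
Markers of mast cells and basophils (upper block), eosinophils (middle block) and type 2 innate lymphoid cells (lower block), each array as a point at its log2(intensity + 16) minus the mean of anti-CD3 replicates 1 to 3 (grey, replicates 1 to 3; orange diamond, replicate 4; blue, anti-CD3 plus anti-ICOS). Cpa3, Kit and Mcpt8 are highest on anti-ICOS replicate 2 (square), while Fcer1a, Ms4a2 and Cd200r3 differ by 0.00, 0.09 and 0.05 between the groups.

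The genes whose pattern was most like that of a member were found by Pearson r over the 6 arrays, among genes that ranged over at least 0.5 log2 units. These correlations are descriptions over 6 shared arrays. For Il4 they were BC023105, Trpm6 and Mmp13 (r = 0.987, 0.979 and 0.973). Each of these was high on anti-ICOS replicate 1 alone, at 6.19, 6.45 and 6.69, against 5.55, 5.79 and 6.19 on replicate 2. For Il13 they were Siglece, Olfr435 and Jph2 (r = 0.997, 0.992 and 0.991), each with anti-CD3 replicate 4 as its lowest array. For Gata3 they were 8030423J24Rik, Zfp607b and Zfand2a (r = 0.977, 0.975 and 0.974), and for Il9 Cbr4, Fbxo48 and Rasgef1a (r = 0.977, 0.974 and 0.972). Of 4772 genes searched for each, 413 had r over 0.9 with Il13 and 23 with Il4.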

How the data were processed

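Total RNA (1 ug per the labels' protocols) from 6 cultures was read on 1-colour Affymetrix Mouse Gene ST arrays. The authors deposited 1 linear, normalized intensity for each probe set, from 7.23 to 22176. The submitters' processing notes name MAS5 and no other tool. How the values were normalized, background-corrected or centred is not given in the sources used here, and a shift of most genes in 1 direction might not be seen.

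The platform annotation gave 1 gene symbol to 21640 of 34760 probe sets and several to 1321, and 11799 were unnamed here. Each gene was represented by its brightest single-symbol probe set, which gave 19937 genes, and each measured member had 1 probe set. Values were analysed as log2(intensity + 16), an offset that shrinks the fold changes of dim genes, with no filter. Groups came from the sample titles. All genes were fitted in limma 3.58.1 (R 4.3.3) by lmFit and eBayes, which left 4 residual degrees of freedom, with two-sided p-values adjusted by Benjamini-Hochberg and a threshold of 0.05. A difference is the anti-ICOS group less the anti-CD3 group. The fit was tested on simulated data.

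The members and lists were chosen with earlier results of these data known. Named were the members, any pathway or Th1 gene past the threshold with the 3 of smallest p in each role, and the 3 genes most like Gata3, Il4, Il13 and Il9. The following were chosen after their values were seen: Il5, Il31, Il4ra, Il13ra1, Il13ra2, Il9r, Ptgdr2, Maf, Stat6, Bhlhe40, Tbx21, Rad50, Kif3a, Il19, Il2ra, Cd28, Socs1, Socs3, Socs5 and the single cell type markers. An array is called apart where its gap to the nearest array over the range of its group of 4 exceeded Dixon's limit of 0.829. Promoters are RefSeq sequences of GRCm38.p6, and 9 members are in that table. Alternatives were quantile normalization, median centring, leaving out the dimmest 40% of genes, offsets of 1 and 64, the mean of probe sets, every probe set tested, a trended and robust prior, array weights, a replicate block, replicate 4 as the only reference and each array left out. Plots used matplotlib 3.10.9 in Python 3.11.15.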

Additional observations from a re-analysis of the deposited data

Results flagged for a closer look

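In 8 genes that are named, 1 anti-CD3 array stood apart from the other 3 by Dixon's test, which chance gives in about 1 of 20 groups and which 8.69% of all genes met. Anti-CD3 replicate 4 was that array for Gfi1 at 9.68, Cish at 8.42, Socs2 at 9.44 and Maf at 8.78, and in each of these 4 it lay on the side of the anti-ICOS arrays. The same held for Lyz2 at 8.53. It was also that array for Zfand2a, at 9.74, with the anti-ICOS arrays at 10.13 and 9.75. For Il24 it was anti-CD3 replicate 3, at 6.18, away from the anti-ICOS arrays, and for Mcpt4 the same replicate at 5.37.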

How the results depend on the processing

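The count of called members was 0 in 15 of 17 alternatives. It was 4 with array weights and 1 with the replicate block, where Il17rb was higher by 0.40 (adjusted p = 0.0113). Of 133 values of single members, 124 kept their direction and side of the threshold. Where replicate 4 alone was the reference the sign turned for Gata3 (0.061), Gfi1 (-0.068), Il13 (0.17) and Ecm1 (0.16), none past the threshold. The count over all genes, 54, was 28 with an offset of 64, 9413 with array weights, 6551 with the replicate block and 35 against replicate 4 alone. Leaving out 1 array gave 16 (without anti-CD3 replicate 2) to 5930 genes (without anti-CD3 replicate 4), with 18 and 20 without anti-CD3 replicates 1 and 3 and 36 and 26 without anti-ICOS replicates 1 and 2. The causes were not tested. Same-numbered arrays did not clearly deviate together (r = -0.0389 and 0.101 over genes), and with 2 shared numbers the block rests on a number alone. The filter on dim genes removed Il4, Il9 and Il24. Without anti-ICOS replicate 1 or 2, the lone array is assumed to vary like the others.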

Other observations

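Granule protein genes of neutrophil precursors were unlike on the 2 anti-ICOS arrays. Mpo read 7.27 and 9.12 there against 6.39 to 6.73 with anti-CD3, and Elane read 7.17 and 8.60 against 6.75 to 6.84 (adjusted p = 0.367 and 0.414). Of the 5 neutrophil markers 0 passed the test, and the other members S100a8, S100a9 and Ly6g differed by 0.45, 0.00 and -0.12. Mpo and Elane were highest on anti-ICOS replicate 2. Among dendritic cell markers Flt3 rose by 1.26 ± 0.087 (SE, adjusted p = 0.00321), from 6.86, 6.86, 6.89 and 7.0 with anti-CD3 to 8.05 and 8.26. It was the 1 of 7 dendritic cell markers past the test, against 0.271% of all genes. Both anti-ICOS values were above the anti-CD3 range in 4 of the 7 and below it in 1, against 8.51% and 14.7% of all genes. Beside Flt3, Itgax, Siglech and Zbtb46 were above it, with differences of 0.87, 0.53 and 0.34 (adjusted p = 0.411, 0.0746 and 0.283). Xcr1 was below it at -0.19, and Clec9a and Cd209a differed by 0.08 and 0.06 with overlapping groups.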
